A study of Sus scrofa with 13 samples.

Results

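The SLC25A genes encode the mitochondrial carrier family, the set of membrane proteins that move metabolites across the inner mitochondrial membrane. Genes entered the family here when their symbol, in the authors' tables or in the reference names of the Ensembl identifiers, began with SLC25A, which gave 40 of the 25322 genes of the count tables. RNA-seq had been run on longissimus lumborum muscle, the loin muscle, of 13 female pigs aged 6 months. Groups were formed by breed and by loin weight within the breed: 3 Hampshire pigs of high loin weight (pigs 8, 9 and 10), 3 Hampshire pigs of low loin weight (pigs 1, 2 and 3), 4 Pietrain pigs of high loin weight (pigs 1, 2, 6 and 7) and 3 Pietrain pigs of low loin weight (pigs 3, 5 and 8). Each pig was 1 animal and 1 library, chosen by the study as an extreme of its breed for loin weight, so the groups do not cover pigs of middle loin weight. The study asked which genes differ with loin weight in each breed.

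Mitochondrial carriers share a fold of repeated membrane-spanning helices and are imported by a dedicated route through the TOM70 receptor, the small TIM chaperones and the TIM22 complex. In muscle, the adenine nucleotide carriers exchange ATP for ADP, the phosphate carrier supplies phosphate to ATP synthase, and the oxoglutarate and aspartate-glutamate carriers form the malate-aspartate shuttle for reducing equivalents. Other members carry citrate, acylcarnitines, amino acids, iron, nucleotides and enzyme cofactors, and for some the substrate is little known.

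Sequencing depth lay between 11312755 and 20134612 counts a pig. The tissue label was checked against 9 listed skeletal muscle markers. The 5 that matched a gene summed to 75063 CPM (counts scaled to a common library size with TMM factors) or more in each pig. Markers of other fibres and cells were not even across the pigs. Pietrain low pig 5 was the lowest, with 27.7 CPM summed over 5 slow fibre markers against 6370 and 8271 CPM in the other Pietrain low pigs. The calls that touch its group, the shares and the ratios were therefore also computed without it. Slow fibre sums were uneven among the Pietrain high pigs too, at 1471, 11159, 747 and 11017 CPM in pigs 1, 2, 6 and 7. Hampshire low pig 1 had the highest summed fast fibre markers, 125222 CPM over 4 genes against 56834 to 96919.7 CPM in the other 12 pigs. In bulk tissue, fewer cells of a type and less RNA per cell cannot be told apart.

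Of the 40 members, 35 had enough counts to be tested in every comparison and 5 did not. SLC25A31, the testis type of adenine nucleotide carrier, was at 0 in all 13 pigs, a count that allows up to 3 reads over the 13 libraries, for counting error only. SLC25A53 had 2 counts, both in Pietrain high pig 1, and SLC25A48 had 18 counts over all pigs. SLC25A35 had 57 counts and SLC25A47 had 83, of which 44 were in Hampshire high pig 10 alone. Conflicting names were carried by 3 identifiers, which bears on what their values stand for. ENSSSCG00000017907 is SLC25A11 in the authors' tables but PFN1 in the reference names. It is called SLC25A11 here, because the authors' tables give PFN1 to another identifier upstream on the same chromosome. ENSSSCG00000012623 is SLC25A6 in the authors' tables and SLC25A5 in the reference names. It is called SLC25A5, since it lies next to SLC25A43 on chromosome X, as SLC25A5 does in RefSeq. Reads of the near-identical genes SLC25A4, SLC25A5 and SLC25A6 may also be split between them, so levels of these are uncertain. ENSSSCG00000013927 is ARMC6 in the authors' tables and SLC25A42, the coenzyme A carrier, in the reference names. It spans 21.3 kb in the authors' coordinates, against 19.8 kb for ARMC6 and 50.0 kb for SLC25A42 in RefSeq on the Sscrofa11.1 assembly. It is left under its identifier and may not be a carrier. A further identifier, ENSSSCG00000026631, has no symbol in either source and is not among the 40. The study names it SLC25A6, an adenine nucleotide carrier, and its values are given after those of the members.

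SLC25A4, the adenine nucleotide carrier of heart and muscle, and SLC25A3, the phosphate carrier, made up most of the family's summed CPM. SLC25A4 lies on chromosome 15 at 52922448 to 52926945 and SLC25A3 on chromosome 5 at 89607357 to 89615244, in the Sscrofa10.2 build used for all coordinates here. In each pig the 2 genes together held between 66.4 and 77.9% of the family's summed CPM. The level of SLC25A4 was 2115, 2448 and 1720 CPM in Hampshire high pigs 8, 9 and 10, and 2199, 1715 and 1487 CPM in Hampshire low pigs 1, 2 and 3. Pietrain high pigs 1, 2, 6 and 7 had 1079, 1354, 815 and 1426 CPM, and Pietrain low pigs 3, 5 and 8 had 1107, 1321 and 1330 CPM. All 6 Hampshire pigs were above all 7 Pietrain pigs, while the loin weight groups overlapped within each breed.

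SLC25A3 was at 827, 995 and 705 CPM in Hampshire high pigs and at 706, 648 and 524 CPM in Hampshire low pigs. It was at 610.3, 774, 455 and 637 CPM in Pietrain high pigs and at 635, 805 and 692 CPM in Pietrain low pigs. Every pair of groups overlapped for this gene. As a share of the family, SLC25A4 held 52.4 to 56.4% in Hampshire pigs and 42.6 to 52.0% in Pietrain pigs, and SLC25A3 held 18.1 to 22.5% in Hampshire pigs and 23.2 to 28.0% in Pietrain pigs. The breeds therefore did not overlap in either share, and without Pietrain low pig 5 the Pietrain ranges were 42.6 to 52.0% and 23.2 to 26.9%. These shares are a description, with no test.

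The shares above and the ratios of related carriers below use CPM with no scaling for length. Otherwise, levels of different genes were compared as CPM per kb of the gene's span on the chromosome, introns included, which lowers long genes. On that scale, SLC25A4 stood at 344 CPM per kb over all pigs and SLC25A3 at 87.9. SLC25A11, the oxoglutarate carrier of the malate-aspartate shuttle, followed at 44.9 CPM per kb, then SLC25A39, a glutathione carrier, at 11.2, and SLC25A1, the citrate carrier, at 4.35. Among the 35 tested members, the highest pig exceeded the lowest by 1.86-fold for SLC25A43, whose substrate is little known, and by 11.7-fold for SLC25A34. SLC25A25, a calcium-regulated carrier of ATP-Mg and phosphate, also varied widely inside 1 group, at 200.4, 64.3, 101 and 29.2 CPM in Pietrain high pigs 1, 2, 6 and 7.

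In Hampshire pigs, high against low loin weight changed 9 of the 35 tested members, with 5 higher and 4 lower in the high group. SLC25A34, SLC25A1, SLC25A5, SLC25A20 and SLC25A28 rose, and SLC25A30, SLC25A24, SLC25A46 and SLC25A44 fell. A gene was called changed when edgeR's quasi-likelihood test gave a Benjamini-Hochberg adjusted p under 0.05 and the fold change was at least 1.2. The share of members called was 25.7%, beside 26.6% of all 12228 genes tested (12.0% called higher and 14.6% called lower), so the family as a whole was called about as often as other genes. The median log2 fold change of the tested members was 0.066, against 0.029 over all genes. The groups did not overlap for 13 of the 35 members, or 37.1%, beside 45.9% of all genes tested. With 3 pigs a group, the exact permutation test of a single gene cannot go below p = 0.1, and every called member stood at that value. Leaving out high pig 10 or low pig 3 reduced the calls to 3 each. Over all genes these 2 fits called 1760 of 12544 and 1224 of 12492, against 3256 in the full fit.

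**Figure D1:**
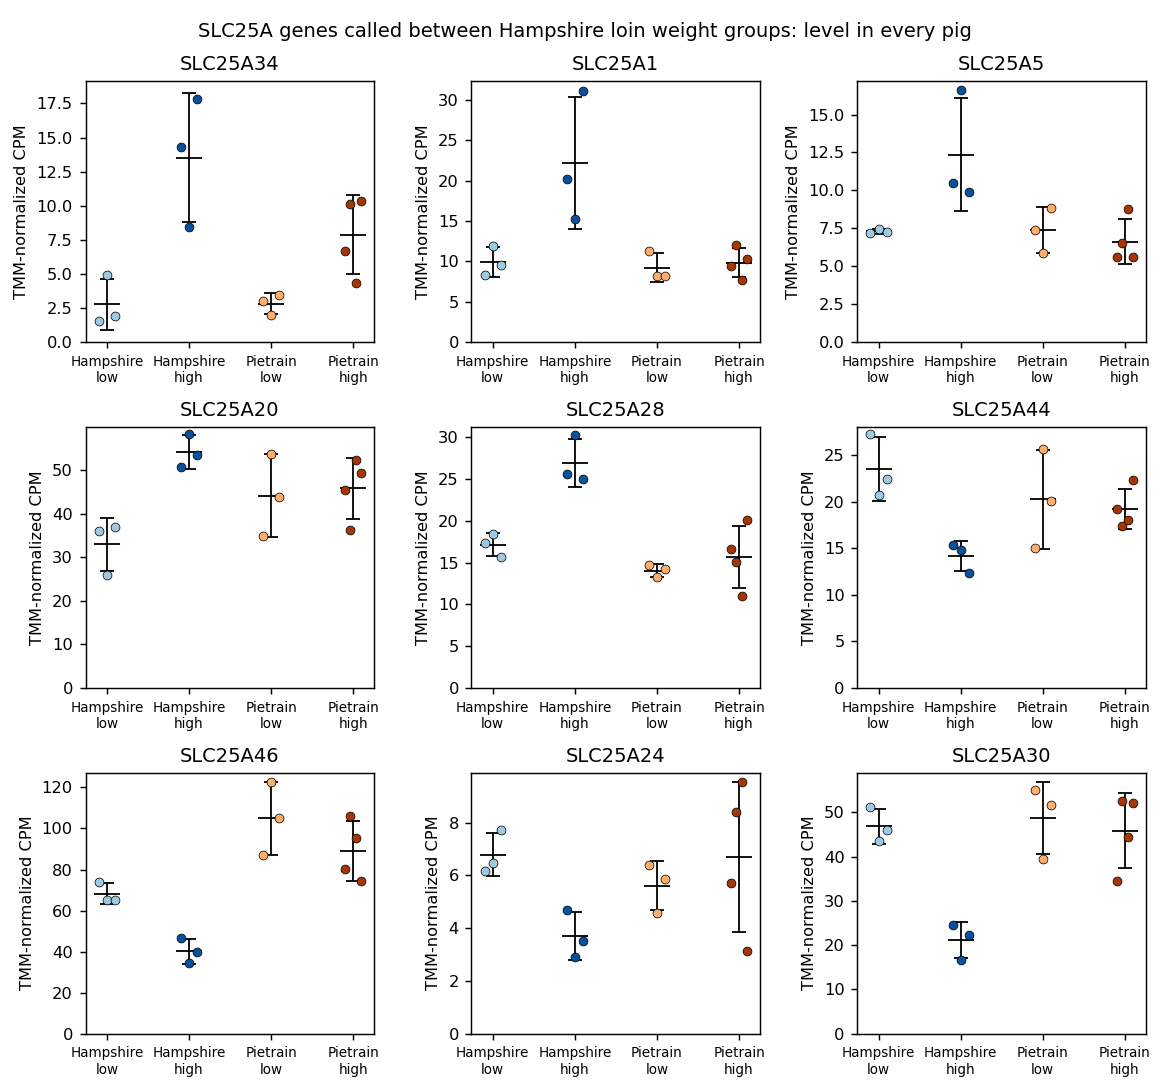
Level of the 9 SLC25A genes called between Hampshire loin weight groups, in TMM-normalized CPM (vertical axes start at 0), for every pig in the 4 groups. Points are pigs, and bars are the group mean ± SD. For all 9 genes the Hampshire high pigs stand clear of the Hampshire low pigs, and of the Pietrain pairs only those of SLC25A34 are also clear of each other.

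Among the carriers of the shuttle and of carboxylates, SLC25A1 was the member called in Hampshire. This citrate carrier, which supplies cytosolic citrate for fatty acid and sterol synthesis, lies on chromosome 14 at 54541564 to 54544455. Its level was 20.2, 15.3 and 31.1 CPM in high pigs 8, 9 and 10 and 8.33, 12.0 and 9.60 CPM in low pigs 1, 2 and 3. Every high pig was above every low pig, with pig 10 highest. The log2 fold change was 1.16 ± 0.28 (SE), a 2.23-fold difference (edgeR adjusted p = 0.018), and the call was lost without high pig 10 (edgeR adjusted p = 0.053), low pig 1 (0.065) or low pig 3 (0.073). SLC25A11, SLC25A12 and SLC25A13 did not pass the test, with log2 fold changes of 0.52, -0.60 and -0.22.

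SLC25A20 exchanges acylcarnitine for carnitine and brings long-chain fatty acids to beta-oxidation. It lies on chromosome 13 at 34777399 to 34804791. High pigs 8, 9 and 10 had 50.7, 58.3 and 53.5 CPM and low pigs 1, 2 and 3 had 36.0, 26.0 and 36.9 CPM, so the groups were apart by more than the spread within either. This gave a log2 fold change of 0.71 ± 0.18 (SE) (edgeR adjusted p = 0.022). Without high pig 9 or 10 or low pig 2 or 3, the edgeR adjusted p ranged from 0.059 to 0.064. It was the member called among the 8 carriers of carnitine, cofactors, nucleotides and glutathione.

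Of the adenine nucleotide and phosphate carriers, 1 member rose, 1 fell and 7 of 9 tested were not called. SLC25A5, the adenine nucleotide carrier of dividing cells, lies on chromosome X at 113743301 to 113746206. It was at 10.5, 16.6 and 9.91 CPM in the high pigs and at 7.16, 7.44 and 7.29 CPM in the low pigs. The low pigs were almost level with each other and the high pigs were all above them, pig 9 by the most. Its log2 fold change of 0.75 ± 0.23 (SE) (edgeR adjusted p = 0.042) had the largest adjusted p of the 9. It was lost in 5 of the 6 fits that left out 1 pig, with 0.45 and an edgeR adjusted p of 0.127 without high pig 9. In 1 fit over all 4 groups it was also lost (edgeR adjusted p = 0.052), as it was with a trend on gene length removed, at 0.40 (edgeR adjusted p = 0.20).

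SLC25A24, a calcium-regulated carrier of ATP-Mg and phosphate, went the other way. On chromosome 4 at 122094476 to 122127835, it had 4.70, 2.91 and 3.52 CPM in the high pigs and 6.18, 6.46 and 7.71 CPM in the low pigs, with no overlap. The log2 fold change was -0.87 ± 0.25 (SE) (edgeR adjusted p = 0.034), and the call was lost without high pig 9 or 10 or low pig 2 or 3 (edgeR adjusted p of 0.069 to 0.125). It was also lost in 1 fit over all 4 groups (0.096) and with the length trend removed (0.061). The related SLC25A23 and SLC25A25 had log2 fold changes of 0.066 and -0.10 and did not pass. SLC25A4 and SLC25A3 did not pass either, at 0.21 ± 0.22 (SE) and 0.42 ± 0.20 (SE).

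SLC25A28, also named mitoferrin-2, carries iron into mitochondria for heme and iron-sulfur clusters. It lies on chromosome 14 at 120241402 to 120251848. High pigs had 25.5, 30.3 and 25.0 CPM and low pigs 17.4, 18.4 and 15.7 CPM, with all high pigs above all low pigs. The log2 fold change was 0.65 ± 0.16 (SE) (edgeR adjusted p = 0.021), and the call was lost without high pig 9 or 10 or low pig 1 or 3 (0.052 to 0.093). Its relative SLC25A37, mitoferrin-1, had a log2 fold change of -0.67 ± 0.27 (SE) and was not called (edgeR adjusted p = 0.094), although its groups did not overlap either.

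SLC25A44, which carries branched-chain amino acids into mitochondria, was the amino acid carrier called, out of 6 tested. It lies on chromosome 4 at 102579409 to 102593041. It was at 15.3, 14.8 and 12.3 CPM in the high pigs and at 27.3, 20.7 and 22.5 CPM in the low pigs, every high pig being below every low pig. It fell by 0.74 ± 0.18 (SE) on the log2 scale (edgeR adjusted p = 0.020). Without high pig 10 the edgeR adjusted p was 0.077 and without low pig 3 it was 0.060.

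The largest rise and the largest fall of the family in Hampshire lay among the uncoupling protein-like carriers and those of little known substrate. In this group 1 member rose and 2 fell of 6 tested. SLC25A34, whose substrate is little known, lies on chromosome 6 at 69390944 to 69394891. High pigs 8, 9 and 10 had 14.3, 8.45 and 17.8 CPM and low pigs 1, 2 and 3 had 1.53, 4.91 and 1.89 CPM. The groups stood wide apart, with low pig 2 nearest to the high pigs. Between them the log2 fold change was 2.27 ± 0.45 (SE), or 4.81-fold (edgeR adjusted p = 0.0095), and the call held in each of the 6 fits without 1 pig, between 1.93 and 2.98.

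SLC25A30, a carrier related to the uncoupling proteins, lies on the unplaced scaffold GL896381.1 at 7016 to 20867. It was at 24.7, 16.7 and 22.3 CPM in the high pigs and at 51.1, 43.4 and 46.0 CPM in the low pigs. Each high pig was well below each low pig, and the difference was 2.21-fold, a log2 fold change of -1.14 ± 0.18 (SE) (edgeR adjusted p = 0.0049). SLC25A46, a divergent member that sits in the outer mitochondrial membrane and takes part in mitochondrial fusion and fission, lies on chromosome 2 at 120019134 to 120045137. Its level was 46.4, 34.5 and 39.6 CPM in the high pigs and 74.0, 65.2 and 65.2 CPM in the low pigs. The groups did not overlap, and the level fell by 0.77 ± 0.17 (SE) on the log2 scale (edgeR adjusted p = 0.013). Both calls held in each fit without 1 pig.

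Fibre and cell type markers were also compared between the Hampshire loin weight groups, where 12.0% of all genes were called higher and 14.6% lower. All 5 slow fibre markers were called higher in Hampshire high pigs, and their summed level was 11699.6 to 17800 CPM there against 2834 to 6607 CPM in Hampshire low pigs. Of the 4 fast fibre markers 1 was called, MYH1, a fast myosin heavy chain, which was lower in high pigs by a log2 fold change of -1.25 ± 0.37 (SE) (edgeR adjusted p = 0.039). Among the 5 general muscle markers, CKM, the muscle creatine kinase, was called higher at 0.98 ± 0.28 (SE) (edgeR adjusted p = 0.032), and MYH7 and MYH1 are counted above with the fibre types. Of the fibroblast and matrix markers, 3 of 5 were called higher, at 1867 to 4850 CPM against 732 to 1573 CPM in sum, and of the smooth muscle markers 2 of 3 (149 to 211 CPM against 82.4 to 112 CPM). Macrophage markers were called higher for 2 of 7 (28.6%; 146 to 203 CPM against 48.3 to 120.0 CPM) and adipocyte markers for 1 of 3 (7.01 to 30.5 CPM against 3.22 to 6.22 CPM), shares near the 26.6% of all genes called in either direction. No endothelial or blood marker was called. None of these listed markers was at 0 in all pigs. Their part in the carrier differences was not tested.

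In Pietrain pigs, high against low loin weight called none of the 35 tested members, nor any other of the 12065 genes tested (0.0%). The smallest edgeR adjusted p of a member was 0.939, and 1 member had an unadjusted p under 0.05, beside 3.3% of all genes. DESeq2 called no member either. Groups did not overlap for 2 members (5.71%, beside 4.59% of all genes), SLC25A34 and SLC25A26, the carrier of S-adenosylmethionine. The median log2 fold change was -0.043, against 0.020 over all genes. Without Pietrain low pig 5 there were again 0 calls.

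The 4 members with the smallest unadjusted p were SLC25A34, SLC25A45, ENSSSCG00000013927 and SLC25A23. SLC25A34 had 6.66, 10.1, 4.35 and 10.3 CPM in high pigs 1, 2, 6 and 7 and 3.04, 1.98 and 3.43 CPM in low pigs 3, 5 and 8. All high pigs were above all low pigs, as in Hampshire. The log2 fold change was 1.51 ± 0.38 (SE), with an unadjusted edgeR p of 0.0023 that did not survive adjustment (0.939), and an exact two-sided permutation p of 0.057, the smallest the test gives for 4 pigs against 3. It lay between 1.30 and 1.73 in the 7 fits without 1 pig.

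SLC25A45, a carrier listed with the amino acid carriers, was read from 5 to 37 counts a pig. It was at 2.68, 0.769, 0.584 and 0.95 CPM in the high pigs and at 0.411, 0.633 and 0.538 CPM in the low pigs, where pig 1 set the mean of the high group and pig 6 fell among the low pigs. ENSSSCG00000013927 had 7.60, 10.3, 7.59 and 13.2 CPM in the high pigs and 8.95, 5.07 and 5.65 CPM in the low pigs, which overlapped. SLC25A23 had 1.95, 3.43, 4.28 and 3.80 CPM in the high pigs and 2.63, 2.61 and 1.88 CPM in the low pigs, which also overlapped. Their log2 fold changes were 1.25 ± 0.62, 0.60 ± 0.31 and 0.54 ± 0.36 (SE), none past the test, and 1.37, 0.43 and 0.59 without low pig 5. Of the 9 members called in Hampshire, 7 had the same sign of log2 fold change in Pietrain and 2, SLC25A24 and SLC25A5, the opposite sign. The Pietrain signs of SLC25A5, SLC25A20, SLC25A30 and SLC25A44 changed in 1 to 3 of the 11 other fits.

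**Figure D2:**
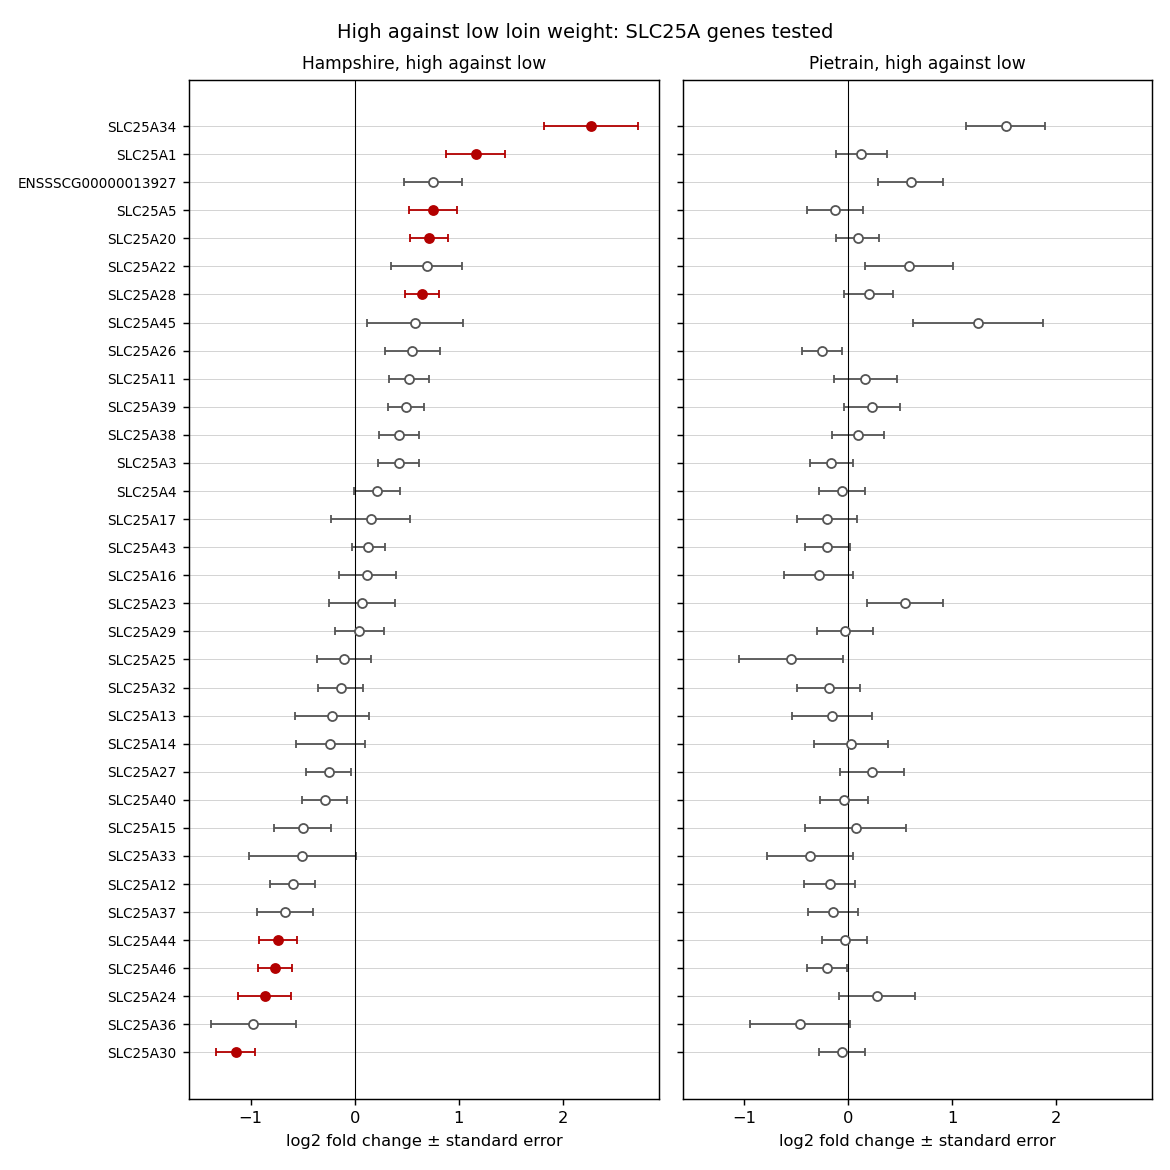
Log2 fold change ± SE (edgeR) of 34 of the 35 tested SLC25A genes for high against low loin weight, in Hampshire (left) and Pietrain pigs (right), ordered by the Hampshire value. Filled red points passed the test, 9 in Hampshire and 0 in Pietrain, and values above 0 are higher in the high group.

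The difference between the breeds in the loin weight effect, Hampshire minus Pietrain, was tested itself by an interaction term over all 13 pigs. SLC25A30 was the 1 member called (2.86% of the 35, beside 5.9% of the 12831 genes tested). It had 34.4, 52.5, 44.3 and 52.0 CPM in Pietrain high pigs and 55.1, 39.4 and 51.6 CPM in Pietrain low pigs, beside the Hampshire values above. Only the Hampshire high pigs were low, and all 10 other pigs lay between 34.4 and 55.1 CPM. The difference of the log2 fold changes was -1.05 ± 0.29 (SE) (edgeR adjusted p = 0.045). It was lost in 9 of the 13 fits without 1 pig, among them that without Pietrain low pig 5 (edgeR adjusted p = 0.096), with values of -1.23 to -0.96 throughout.

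Another 7 members had an unadjusted p under 0.05 for the difference, so 8 of 35 in all, beside 22.1% of all genes. SLC25A1 had the largest of these above 0, at 1.06 ± 0.37 (SE) (edgeR adjusted p = 0.108), and SLC25A24 the largest below 0, at -1.11 ± 0.48 (SE) (edgeR adjusted p = 0.186). For the other 8 members called in Hampshire, a difference from Pietrain was thus not shown. For SLC25A34 it was 0.79 ± 0.61 (SE), with both breeds higher in the high group.

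Between breeds at low loin weight, Hampshire against Pietrain, 4 of 35 members were called (11.4%), beside 17.9% of all genes (7.84% higher and 10.1% lower in Hampshire). Among these, SLC25A39 was higher in Hampshire and SLC25A16 and SLC25A46 lower. At high loin weight, 14 of 35 members were called (40%), beside 46.8% of all genes, with 11 higher (31.4%, beside 22.6%) and 3 lower (8.57%, beside 24.2%) in Hampshire. With a trend on gene length removed, 8 of 34 members were called higher and 4 lower there, beside 2397 and 2417 of 9975 genes. The median log2 fold change of the members was 0.19 at low and 0.24 at high loin weight, against 0.0042 and 0.017 over all genes. Both contrasts use different pigs, and breed cannot be told apart from anything else that differed between the pigs of each breed.

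SLC25A39 carries glutathione into mitochondria and lies on chromosome 12 at 19275070 to 19278295. It was at 38.2, 48.2 and 35.9 CPM in Hampshire low pigs and at 26.2, 22.2 and 21.1 CPM in Pietrain low pigs. Its level was 52.0, 65.0 and 55.6 CPM in Hampshire high pigs and 27.7, 24.8, 16.6 and 36.7 CPM in Pietrain high pigs. Neither pair of groups overlapped. The breed difference was 0.82 ± 0.24 (SE) at low loin weight (edgeR adjusted p = 0.036) and 1.12 ± 0.22 (SE) at high loin weight (edgeR adjusted p = 0.0013), or 1.76-fold and 2.17-fold.

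SLC25A40, a glutathione carrier related to SLC25A39, went the other way. It lies on chromosome 9 at 101932442 to 101963101. Hampshire high pigs had 11.3, 7.09 and 8.12 CPM, below the 14.3, 17.5, 21.1 and 12.5 CPM of Pietrain high pigs. Its breed difference there was -0.88 ± 0.23 (SE) (edgeR adjusted p = 0.0067). At low loin weight, Hampshire pigs had 10.17, 11.9 and 10.3 CPM and Pietrain pigs 13.8, 20.3 and 17.6 CPM, with no overlap but an edgeR adjusted p of 0.065.

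SLC25A16, a member linked to mitochondrial coenzyme A, lies on chromosome 14 at 77648560 to 77674830. It was at 2.08, 3.01 and 2.87 CPM in Hampshire low pigs and at 5.26, 4.83 and 7.39 CPM in Pietrain low pigs. The log2 fold change was -1.13 ± 0.32 (SE) (edgeR adjusted p = 0.030). At high loin weight, Hampshire pigs had 2.66, 3.09 and 2.94 CPM and Pietrain pigs 3.62, 3.71, 7.33 and 4.10 CPM, which did not overlap but did not pass the test (-0.70 ± 0.30 (SE), edgeR adjusted p = 0.072).

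SLC25A46 was lower in Hampshire in both pairs. Pietrain low pigs had 87.0, 123 and 105 CPM and Pietrain high pigs 80.1, 106, 95.3 and 74.6 CPM, all above every Hampshire pig. The breed difference was -0.62 ± 0.19 (SE) at low loin weight (edgeR adjusted p = 0.038) and -1.15 ± 0.18 (SE) at high loin weight (edgeR adjusted p = 2.7e-04). SLC25A30 differed at high loin weight, by -1.11 ± 0.20 (SE) (edgeR adjusted p = 6.6e-04), and was -0.056 ± 0.21 (SE) at low loin weight. All 4 calls at low loin weight were lost without any 1 of Hampshire low pigs 1, 2 and 3 or Pietrain low pigs 5 and 8. In those 5 fits 0 members were called, and over all genes the calls fell from 2300 to 1667, 109, 501, 163 and 111. The count of members was 2 without Hampshire high pig 10 and 7 without Pietrain high pig 6, beside 1877 and 3091 of all genes.

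Energy carriers led the members that were higher in Hampshire at high loin weight. SLC25A11, on chromosome 12 at 54039543 to 54042605, had 212, 270.2 and 197 CPM in Hampshire high pigs and 75.8, 118, 53.0 and 132 CPM in Pietrain high pigs. No pig of one breed fell in the range of the other, and the difference was 1.26 ± 0.26 (SE), or 2.39-fold (edgeR adjusted p = 0.0017). At low loin weight it was at 161, 179 and 129.6 CPM in Hampshire and 92.7, 73.3 and 93.7 CPM in Pietrain, with no overlap and an edgeR adjusted p of 0.051. With a trend on gene length removed, SLC25A11 differed by 0.75 at high loin weight and stayed called. SLC25A4 differed by 0.84 ± 0.21 (SE) (edgeR adjusted p = 0.0056) at high loin weight, a call lost with the length trend removed (0.37, edgeR adjusted p = 0.128), and by 0.52 ± 0.23 (SE) at low loin weight (edgeR adjusted p = 0.119).

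SLC25A1 had 9.41, 12.0, 7.66 and 10.3 CPM in Pietrain high pigs and 11.3, 8.23 and 8.13 CPM in Pietrain low pigs, all below the 3 Hampshire high pigs. The breed difference was 1.17 ± 0.25 (SE) at high loin weight (edgeR adjusted p = 0.0019) and 0.11 ± 0.27 (SE) at low loin weight. SLC25A5 had 5.64, 6.50, 8.76 and 5.60 CPM in Pietrain high pigs, below every Hampshire high pig. It differed by 0.89 ± 0.24 (SE) (edgeR adjusted p = 0.0074), a call lost without Hampshire high pig 9 (0.079) and with the length trend removed, at 0.33 (0.296).

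SLC25A22, a glutamate carrier on chromosome 2 at 177464 to 183099, was read from 10 to 60 counts a pig. It was at 2.32, 4.09 and 3.84 CPM in Hampshire high pigs and at 1.16, 1.75, 1.36 and 1.95 CPM in Pietrain high pigs, without overlap. The difference of 1.12 ± 0.34 (SE) (edgeR adjusted p = 0.015) was lost without Hampshire high pig 9 (0.074) or 10 (0.068). ENSSSCG00000013927 was at 19.3, 10.8 and 23.7 CPM in Hampshire high pigs, overlapping the Pietrain high pigs through pig 9, and was called at 0.89 ± 0.29 (SE) (edgeR adjusted p = 0.020). Without this uncertain identifier, 13 of 34 members were called.

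Further calls at high loin weight were SLC25A28, SLC25A26 and SLC25A38, the last a glycine carrier needed for heme synthesis. SLC25A28 was at 16.6, 15.1, 11.03 and 20.05 CPM in Pietrain high pigs, below all Hampshire high pigs, a difference of 0.78 ± 0.19 (SE) (edgeR adjusted p = 0.0044). SLC25A26 averaged 23.6 CPM in Hampshire and 15.2 CPM in Pietrain, a difference of 0.63 ± 0.21 (SE). SLC25A38 averaged 13.5 and 9.05 CPM, a difference of 0.58 ± 0.21 (SE). Neither overlapped between the breeds. Of the 11 calls with the largest fold change in their direction at high loin weight, 8 held in each of the 13 fits without 1 pig, the exceptions being SLC25A22, SLC25A5 and ENSSSCG00000013927. SLC25A28, SLC25A26 and SLC25A38 are not among these 11, and their calls did not all hold. The full fit called 14 members (6001 of all genes), and that without Hampshire high pig 10 called 10 (4705 of all genes). Of the 11, only SLC25A22 and ENSSSCG00000013927 were lost in that fit. Without Hampshire high pig 9 the count was 11 (4640 of all genes), with SLC25A36 gained.

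**Figure D3:**
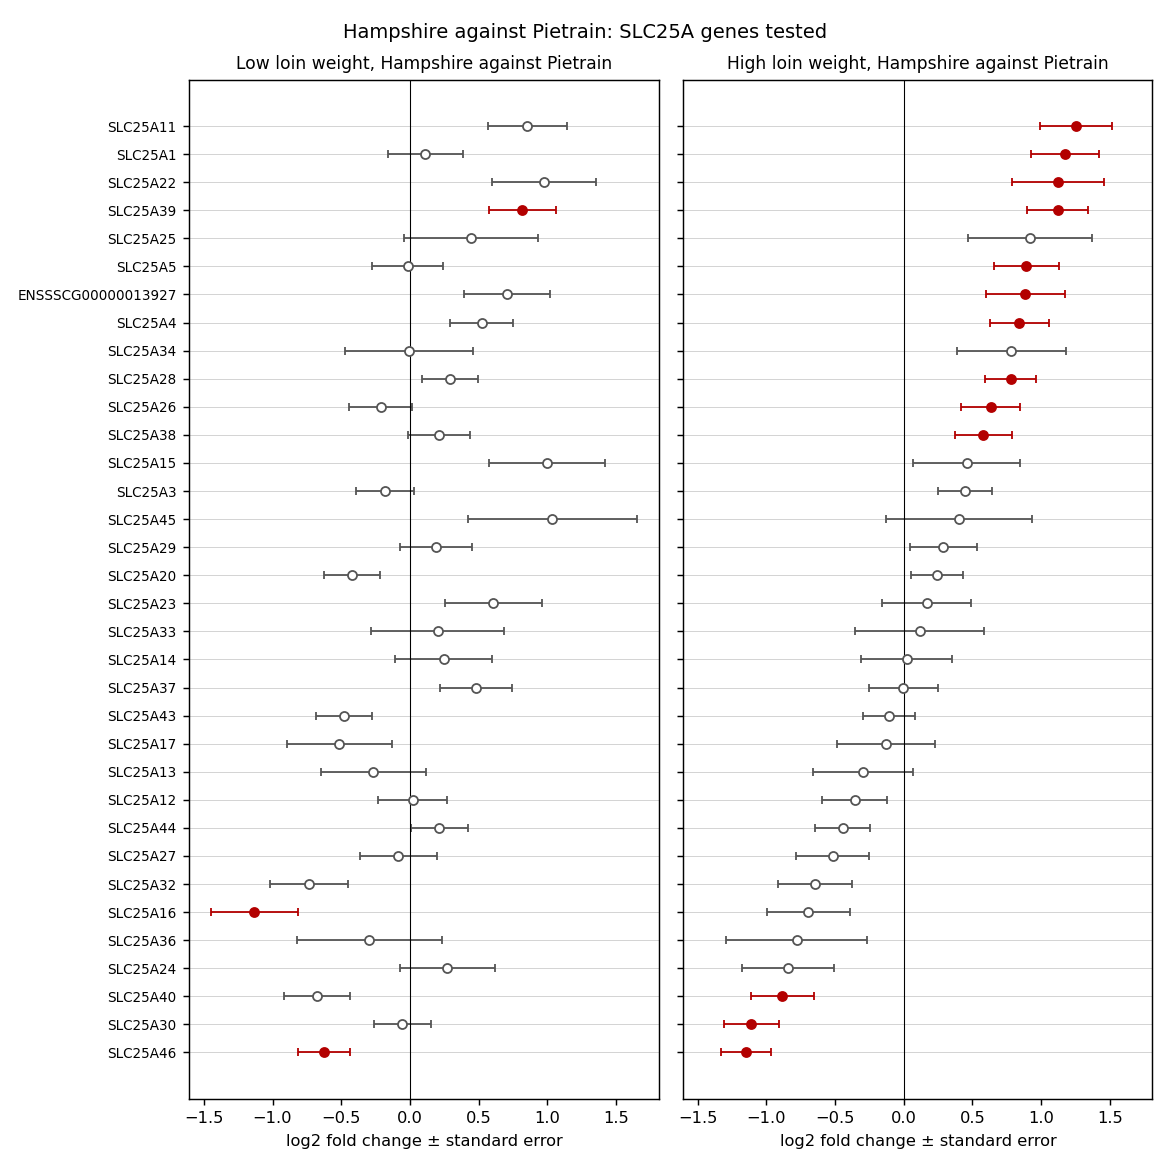
Log2 fold change ± SE (edgeR) of 34 of the 35 tested SLC25A genes for Hampshire against Pietrain pigs, at low (left) and high loin weight (right), ordered by the value at high loin weight. Filled red points passed the test, 3 at low and 13 at high loin weight, and values above 0 are higher in Hampshire.

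Macrophage markers moved with the breed contrasts. All 7 were called higher in Hampshire at high loin weight, beside 22.6% of all genes, with a sum of 146 to 203 CPM against 18.1 to 55.7 CPM. Without Pietrain low pig 5, 6 of the 7 were called there, where 6024 of 13239 genes in all were called. At low loin weight 5 of 7 were called higher, beside 7.84% of all genes, with 48.3 to 120.0 CPM against 14.7 to 25.6 CPM, and 0 of 7 without Pietrain low pig 5, where 163 of 13239 genes in all were called. At high loin weight, 2 of 3 smooth muscle, 3 of 5 fibroblast and matrix, 2 of 4 blood, 2 of 5 general muscle (ACTA1 and CKM), 1 of 4 fast fibre and 1 of 4 endothelial markers were also called higher in Hampshire and none lower, beside 46.8% of all genes called in either direction. For the fibroblast and matrix markers the count was 2 of 5 without Pietrain low pig 5. None of the 5 slow fibre markers was called between breeds (1 of 5 at high loin weight without Pietrain low pig 5), at 11699.6 to 17800 CPM in Hampshire high and 747 to 11159 CPM in Pietrain high pigs in sum. Their part in the breed differences of the carriers was not tested.

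Related carriers of the same substrate class were set against each other. For 7 such pairs, the log2 ratio of the CPM of the first gene to that of the second (each plus 0.5) was taken within each pig, which removes the library's scaling. The pairs were chosen after values had been seen, so the ratios are a description with no test. SLC25A39 over SLC25A40 was 2.15 to 3.11 in Hampshire high, 1.75 to 1.97 in Hampshire low, -0.34 to 1.52 in Pietrain high and 0.12 to 0.90 in Pietrain low pigs. It was higher in each Hampshire group than in the Pietrain group of the same loin weight, and higher in Hampshire high than in Hampshire low pigs, with no overlap, and without Pietrain low pig 5 the Pietrain low range was 0.25 to 0.90. The genes differ in span, at 3.23 kb and 30.7 kb. The fitted log2 fold change of SLC25A39 minus that of SLC25A40 was 0.78 for loin weight in Hampshire and 2.00 for breed at high loin weight, and with a trend on gene length removed it was 0.28 and 1.26.

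SLC25A28 over SLC25A37, the mitoferrins, was 1.32 to 2.53 in Hampshire high and 0.29 to 0.63 in Hampshire low pigs. In Pietrain it was 0.76 to 1.21 in high and 0.48 to 0.74 in low pigs. The high group was above the low group without overlap in both breeds, also without Pietrain low pig 5 (0.70 to 0.74 in low pigs). Removing the length trend lowered the Hampshire difference of the 2 fitted log2 fold changes from 1.31 to 0.75, the genes spanning 10.4 kb and 178 kb. SLC25A14 over SLC25A30, both related to the uncoupling proteins, was -3.07 to -2.62 in Hampshire high pigs against -3.82 to -3.46 in Hampshire low pigs, and the Pietrain groups overlapped. The ratios of SLC25A4 over SLC25A5 and of the aspartate-glutamate carriers SLC25A12 over SLC25A13 overlapped between the Hampshire loin weight groups.

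**Figure D4:**
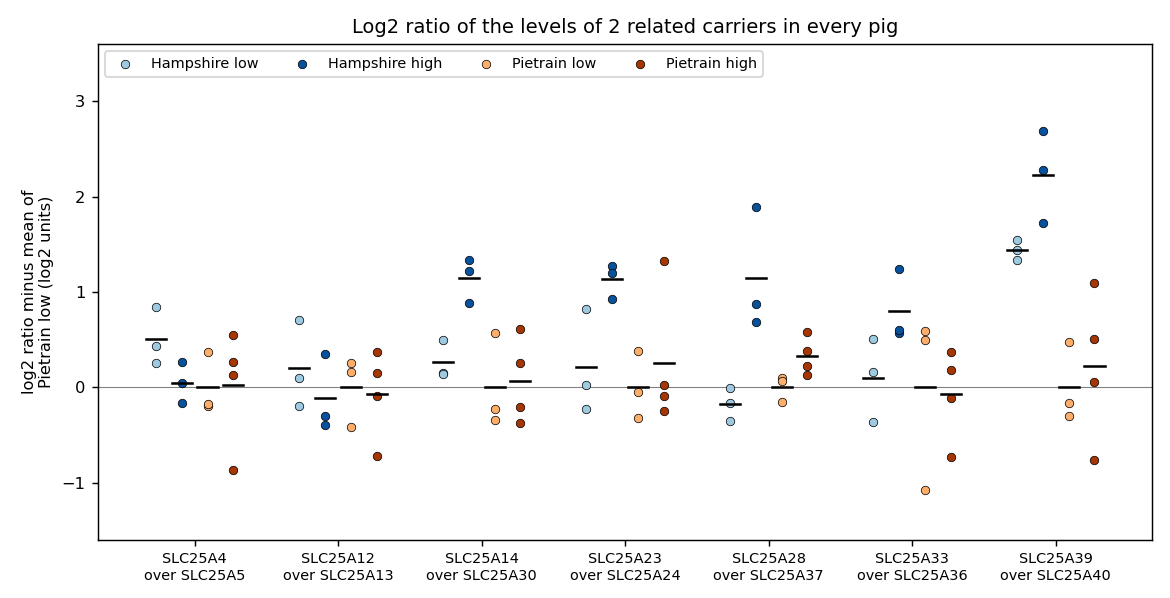
Log2 ratio of the CPM (plus 0.5) of 2 related carriers in every pig, shown as the difference from the mean of Pietrain low pigs for each of 7 pairs. Points are pigs and black lines group means. The Hampshire pigs stand above the Pietrain pigs for SLC25A39 over SLC25A40, and the ratio of SLC25A28 over SLC25A37 is higher in high than in low pigs of both breeds.

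Gene length moved with these differences. Over the 34 members with a position, Spearman's rho between the gene's span and the log2 fold change was -0.49 for loin weight in Hampshire, -0.43 in Pietrain and -0.52 for breed at high loin weight. Over all genes with a position it was -0.39, -0.089 and -0.39. The points share libraries, and the values are a description. The 5 members called higher in Hampshire high pigs had a median span of 3.95 kb and the 4 called lower 19.9 kb, beside 18.9 kb for all genes tested. When a trend on length was removed in each pig, the Hampshire calls of SLC25A1 (edgeR adjusted p = 0.057), SLC25A5 (0.20) and SLC25A24 (0.061) were lost and that of SLC25A26 was gained (0.029). This left 7 of 34 members called, beside 2368 of 9945 genes. At high loin weight the breed calls of SLC25A4 (0.128), SLC25A5 (0.296), SLC25A22 (0.079) and SLC25A38 (0.079) were lost and those of SLC25A25 (0.012) and SLC25A44 (0.029) gained. SLC25A11, SLC25A1 and SLC25A39 kept their breed calls there with smaller log2 fold changes of 0.75, 0.66 and 0.61. SLC25A34, SLC25A20, SLC25A28, SLC25A30, SLC25A46 and SLC25A44 remained called in Hampshire.

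**Figure D5:**
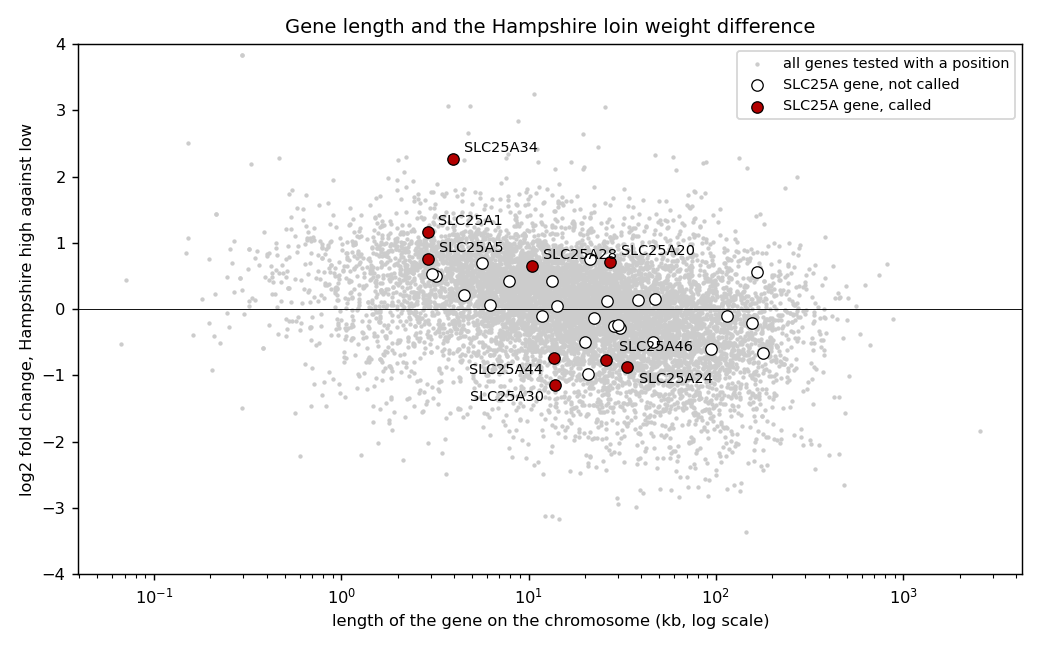
Log2 fold change of Hampshire high against low loin weight (edgeR) by the gene's span on its chromosome (kb, log scale). Grey points are all 9945 genes tested with a position (1 lies beyond the axis limit of 4), and circles are SLC25A genes, filled red where called. The 3 shortest of the 9 called genes, SLC25A1, SLC25A5 and SLC25A34, are higher in the high pigs, and the longest, SLC25A24, is lower.

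ENSSSCG00000026631, the identifier that the study names SLC25A6, lies on the unplaced scaffold GL896347.1 at 4277 to 5162. It was looked at after it had been seen among the genes that the study called with loin weight in both breeds. That list comes from these same data, so the values here are no independent support for a loin weight difference. The study called it in Pietrain as well, whereas the Pietrain test given below did not. Its reads may be shared with SLC25A4 and SLC25A5. It was at 62.7, 64.7 and 50.8 CPM in Hampshire high pigs 8, 9 and 10 and at 23.9, 34.5 and 29.1 CPM in Hampshire low pigs 1, 2 and 3. Pietrain high pigs 1, 2, 6 and 7 had 17.9, 22.2, 13.6 and 30.7 CPM and Pietrain low pigs 3, 5 and 8 had 17.1, 11.0 and 14.3 CPM. The Hampshire loin weight groups stood clear of each other, and the Pietrain groups overlapped through high pig 6.

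The Hampshire log2 fold change of ENSSSCG00000026631 was 1.02 ± 0.18 (SE) (edgeR adjusted p = 0.0064), called in each of the 6 fits without 1 pig, and it was 0.61 with the length trend removed (edgeR adjusted p = 0.037). In Pietrain it was 0.61 ± 0.30 (SE), which did not pass (edgeR adjusted p = 0.939), and the difference between the breeds was 0.44 ± 0.37 (SE) (edgeR adjusted p = 0.521). Hampshire pigs were higher than Pietrain pigs by 1.49 ± 0.25 (SE) at high loin weight (edgeR adjusted p = 3.7e-04; 0.87 with the length trend removed, still called). At low loin weight the breed difference was 1.05 ± 0.27 (SE) (edgeR adjusted p = 0.023), a call lost without Hampshire low pig 2 (0.101) or 3 (0.068) or Pietrain low pig 5 (0.109) or 8 (0.079).

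Carrier family genes with other symbols were counted from a list of 5, of which 4 matched. UCP3, an uncoupling protein of skeletal muscle, averaged 254 ± 73.3 CPM in Hampshire high (SD, n = 3), 72.4 ± 26.2 in Hampshire low, 65.9 ± 34.3 in Pietrain high (n = 4) and 29.3 ± 1.37 in Pietrain low pigs. UCP2, its relative of immune and other cells, averaged 15.0 ± 6.65, 5.32 ± 0.85, 2.50 ± 1.09 and 2.07 ± 0.63 CPM in the same order. Both were called higher in Hampshire high than low pigs, by 1.81 ± 0.32 and 1.5 ± 0.35 (SE) on the log2 scale (edgeR adjusted p = 0.0065 and 0.017). Both were also called higher in Hampshire than Pietrain pigs at high and at low loin weight, and at low loin weight both calls were lost without Pietrain low pig 5 (edgeR adjusted p = 0.142 for UCP2 and 0.136 for UCP3), where the Pietrain low means were 2.27 and 30.03 CPM. In Pietrain, the loin weight log2 fold change of UCP3 was 1.21 ± 0.39 (SE), with an unadjusted edgeR p of 0.011 that did not survive adjustment (0.939). That of UCP2 was 0.31 ± 0.44 (SE). A difference between the breeds was not shown for UCP3 (0.64 ± 0.55 (SE), edgeR adjusted p = 0.540) or UCP2 (1.21 ± 0.56 (SE), 0.224). The study called UCP3 higher with loin weight in both breeds. MTCH1, an outer membrane relative, was called in the breed contrast at high loin weight, at 0.40 ± 0.14 (SE), and not without Pietrain low pig 5 (edgeR adjusted p = 0.056).

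Of 11 genes of the import route that matched, TIMM8B, a small TIM chaperone, was the 1 called in Hampshire, at 0.60 ± 0.19 (SE) (edgeR adjusted p = 0.044), a share of 9.09% beside 26.6% of all genes. It was also called for the difference between breeds, at 1.02 ± 0.26 (SE) (edgeR adjusted p = 0.034), a call lost without Pietrain low pig 5 (0.091). At high loin weight 4 of the 11 (TOMM22, TIMM22, TIMM13 and TIMM8B) were higher and TIMM8A was lower in Hampshire (45.5%, beside 46.8% of all genes). Without Pietrain low pig 5 the calls of TOMM22 (edgeR adjusted p = 0.069) and TIMM8B (0.055) were lost there. At low loin weight TOMM20 and TIMM8A were lower, neither without Pietrain low pig 5 (edgeR adjusted p = 0.101 and 0.146). Of 20 other mitochondrial transporters and channels tested, 2 rose and 1 fell in Hampshire high pigs, or 15%, beside 26.6% of all genes. CPT2, which remakes acyl-CoA from acylcarnitine inside mitochondria, rose by 0.98 ± 0.24 (SE) and TSPO, an outer membrane protein also abundant in macrophages, by 1.61 ± 0.48 (SE). MCU, the pore of the calcium uniporter, fell by 1.05 ± 0.17 on the log2 scale (edgeR adjusted p = 0.0047), from 26.0 ± 2.69 to 12.6 ± 1.05 CPM (SD, n = 3 each). It was also called for the difference between breeds, at -1.23 ± 0.28 (SE) (edgeR adjusted p = 0.020), and remained so without Pietrain low pig 5 (0.043). In Pietrain, none of these lists had a called gene. The carrier family genes with other symbols, the import route and the other transporters had medians there of 0.22, -0.14 and 0.012 on the log2 scale.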

How the data were processed

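Libraries had been made from total RNA of longissimus lumborum with the TruSeq RNA v2 kit, which does not mark strand, so overlapping and antisense genes cannot be told apart. The authors deposited raw counts per Ensembl gene for each pig, with the 4 technical sequencing runs of a library in 1 column. The submitters' processing notes name FastQC, STAR, RSEM, DESeq2 and the Sscrofa10.2 build, without versions. Gene positions (start and end) were taken from the authors' tables, and 34 of 40 members had one. The columns of the authors' own comparisons in those tables (mean, fold change, standard error, statistic, p-value, adjusted p-value) were not used. Symbols came from those tables and from reference names of the Ensembl identifiers, and 13168 of 25322 genes had one. RefSeq on Sscrofa11.1 served for names, gene lengths of a name conflict and neighbours only.

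The counts of the 13 pigs were joined by identifier. Genes were tested with the quasi-likelihood test of edgeR 4.0.16 under R 4.3.3, after TMM normalization and the filterByExpr filter by group, with Benjamini-Hochberg adjustment over all genes tested. The loin weight contrasts were fitted within each breed, and the breed contrasts and the interaction over all 4 groups. A gene was called at an adjusted p under 0.05 if its fold change reached 1.2, and for the interaction at an adjusted p under 0.05 alone. Standard errors were the log2 fold change divided by the square root of F. Levels are CPM on TMM library sizes over all 13 pigs. Exact two-sided permutation tests (scipy 1.17.1) used log2(CPM + 0.5). Figures used matplotlib 3.10.9. The scripts were tested on simulated data with known changes.

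Total counts were 11312755 to 20134612 per pig, and all 15 pairs of pigs within a group differed beyond sampling noise. The labels give no batch. Alternatives were DESeq2 1.42.0 (its NA p-values left as NA), its size factors in edgeR, other filters, fold thresholds and sample sets, a removed length trend and leaving out each pig. Shares and ratios without Pietrain low pig 5, and ratios with the length trend removed, were added after seeing the data. The members, the gene lists and the ratio pairs were chosen with earlier results of these data known. Of the tested members, 1 is counted in the totals and is not reported here by itself. Values of every pig are given for the 5 members highest per length, for up to 8 called members in each direction and comparison, for members called for the interaction, and for the 4 smallest p-values where none was called. Members and genes of the lists described beyond these were named after their values were seen.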

Additional observations from a re-analysis of the deposited data

Results flagged for a closer look

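In the group of 4 Pietrain high pigs, 35 members were examined for a single pig far from the rest (Dixon's gap over range, critical value 0.829), and 2 exceeded it. Chance flags about 1 in 20 groups. SLC25A27, a carrier related to the uncoupling proteins, was at 12.3 CPM in Pietrain high pig 7 and next highest at 6.82 CPM, a ratio of 0.903. SLC25A16 was at 7.33 CPM in Pietrain high pig 6 and next highest at 4.10 CPM, a ratio of 0.870. The loin weight effect on SLC25A30 differed between the breeds by -1.05 on the log2 scale in the interaction test, and the call was lost in 9 of 13 fits without 1 pig.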

How the results depend on the processing

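No result changed sign past the test under any alternative. For the single genes followed, 332 alternative values kept their side of the threshold and 69 lost it. These values leave out the changes of filter and fold threshold. They include the Pietrain members given for their smallest p-values, which were never called. The calls of SLC25A28, SLC25A26 and SLC25A38 at high loin weight are not among them. Members called in Hampshire for loin weight numbered 7 to 12 under the other settings, beside 2368 to 3446 of all genes. With 1 pig left out they numbered 3 to 9, beside 1224 to 3049 of all genes. In Pietrain, members called were 0 throughout. The single call for the difference between breeds fell to 0 with no filter (626 of all genes). Leaving out 1 pig gave 0 to 1 there, beside 379 to 1052 of all genes. For breed at low loin weight the count was 2 with no filter and 7 in a fit of the 2 groups alone, beside 1935 and 2830 of all genes. With 1 pig left out it was 0 to 7, beside 109 to 3091 of all genes. At high loin weight the count of members was 12 to 15, and 10 to 16 with 1 pig left out, beside 4814 to 6161 and 4640 to 6288 of all genes.

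The median log2 fold change of the members in Hampshire was -0.011 with at least 10 counts in every pig, and -0.15 to 0.15 with 1 pig left out. In Pietrain it was -0.073 to -0.0038 with 1 pig left out. For the difference between breeds it was 0.038 with no filter, 0.059 with the length trend removed and -0.13 to 0.18 with 1 pig left out. For breed with 1 pig left out it was 0.060 to 0.27 at low loin weight and 0.20 to 0.28 at high loin weight. The cause of these shifts was not tested. Low members such as SLC25A45, with 5 to 37 counts a pig, are limited by depth. No paired analysis was possible because the numbers in the labels name separate animals of each group. A level per coding length was not run, since no coding lengths were used here.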
